A study of Ambystoma mexicanum with 49 samples.

Results

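Late cleavage of the axolotl embryo (Ambystoma mexicanum, a salamander) was compared with early cleavage, before the embryo's own genome is broadly switched on. Late cleavage was taken as every poly(A) library of stages 6, 7 and 8, 9 libraries in all. Early cleavage was taken as every poly(A) library of stages 2, 3, 4 and 5, 12 libraries in all. These 21 libraries were chosen by stage label alone from 49 poly(A) libraries of the series. Each library came from 1 whole, untreated embryo with its jelly removed, so replicates are separate embryos. No strain, clutch or parent is given in the sources used here. The protocols describe the same handling, preservation, RNA extraction and poly(A) selection for both phases. Which libraries were prepared together or shared a sequencing lane is unknown. A difference in preparation or lane therefore cannot be told apart from phase and was not tested. The purpose of pooling stages was to look for a slow drift of transcript levels ahead of the midblastula transition.

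Cleavage divides the egg's cytoplasm into ever smaller cells through fast cell cycles, and it runs mainly on messenger RNA and protein that the mother stored in the egg. In amphibians the stored messages are controlled by lengthening and shortening of their poly(A) tails, by translation and by decay, and the embryonic genome becomes broadly active at the midblastula transition. Poly(A) selection measures the tailed share of a message, so the amount of a transcript and its tail cannot be told apart here. Likewise, in RNA of whole embryos, fewer cells with a transcript and less of it per cell cannot be told apart.

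The libraries held 13.6 to 39.4 M estimated counts. Levels below are TPM (the abundance unit of RSEM, scaled for library total and gene length), given as the lowest, median and highest library or as mean ± SD. Log2 changes are late minus early, given ± SE, and come from counts scaled between libraries by TMM (trimmed mean of M values). Over the genes tested, these log2 changes sat 0.32 below the log2 ratio of mean TPM (median -0.319), so a gene whose TPM differed little can have a negative log2 change. Genes were called with edgeR's quasi-likelihood test at a Benjamini-Hochberg adjusted p under 0.05. Names are those of the deposited table, and reads of near-identical family members such as histones can be shared between them.

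Libraries differed within stages, and some stood nearer to other stages than to their own. The first principal component of the log2 CPM held 65.2% of the variance. Late libraries lay between 14.8 and 38.4 on it, and early libraries between -68.9 and 6.49. No early library reached the late range (exact permutation test of the means, two-sided, p = 6.8e-06, 3.06e-05 after Benjamini-Hochberg adjustment over 9 library measures). Replicate 3 of stage 6, at 14.8, was the late library nearest to the early ones. Replicate 3 of stage 2, at -2.23, lay far from the other stage 2 libraries at -58 and -68.9. Replicate 1 of stage 8 had the highest HIST1H2BC and NANOG levels of all 21 libraries. Calls without each of these are given beside the results they change.

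**Figure D1:**
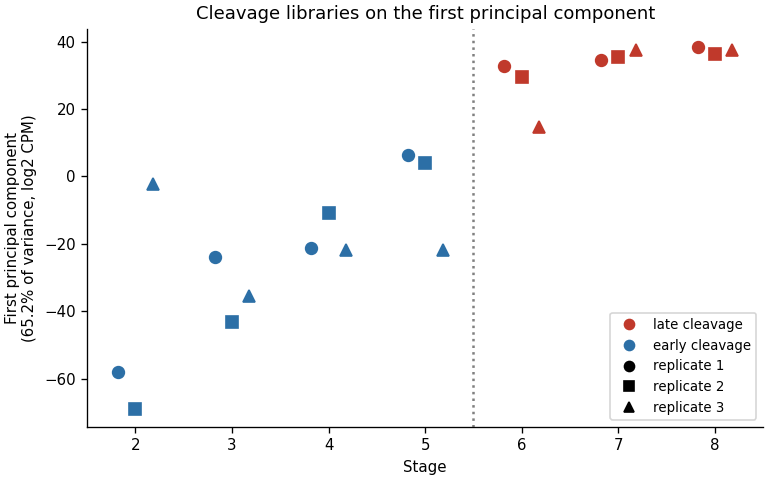
Position of each library on the first principal component (vertical axis, 65.2% of the variance of log2 CPM) by stage (horizontal axis). Points are single embryos, marker shapes are replicate numbers, red is late and blue is early cleavage. Late libraries cluster between 14.8 and 38.4 and early libraries spread from -68.9 to 6.49, with replicate 3 of stage 2 at -2.23.

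The difference between late and early cleavage was broad and mostly small. Of 11991 genes tested, 4225 were higher (35.2%) and 3817 lower (31.8%) in late cleavage, 67.1% in all. Among called genes the median size of the log2 change was 0.52, with quartiles at 0.34 and 0.79. Larger changes were more often increases: 949 genes were at least 2-fold higher and 215 at least 2-fold lower, and 140 changed at least 4-fold. Late and early libraries did not overlap at all in scaled counts for 2033 genes (17%), of which 951 were higher and 1082 lower. For 7253 called genes, every late stage mean lay beyond every early stage mean. The split of the calls depended on scaling: with library size alone 5992 genes were higher and 1858 lower, since all changes then moved up by 0.26. The share of higher calls among all calls was 76.3% with library size alone, against 52.5% with TMM. Changes below are therefore relative to the bulk of the genes. The median log2 change over all genes was 0.03 with TMM, 0.28 with library size alone and -0.05 with offsets adjusted for gene length. Values of a list under those settings are to be read against these medians.

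More genes reached 1 TPM in late libraries. Genes at 1 TPM or more numbered 11392 ± 98.2 in late libraries and 10942 ± 198 in early libraries (SD, n = 9 and 12, exact permutation test, two-sided, p = 3.06e-05, adjusted 5.51e-05). Library totals were 23.6 ± 8.77 M counts in late and 21.7 ± 5.77 M counts in early libraries (exact permutation test, two-sided, p = 0.569, adjusted 0.732). As given above, log2 changes in scaled counts sat below log2 ratios of mean TPM (median -0.319). The part of that shift in the number of genes at 1 TPM was not tested.

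The 4 lower genes named for the smallest p included 3 regulators of mitosis. UBE2C, the ubiquitin-conjugating enzyme that works with the anaphase-promoting complex, had 528, 671 and 1193 TPM (lowest, median, highest) in late libraries, against 1398, 1684 and 2041 TPM in early libraries. The ranges did not overlap, and the log2 change was -1.53 ± 0.10 (edgeR quasi-likelihood, adjusted p = 2.24e-08). CDK1, the kinase that drives entry into mitosis, had 140.5, 186 and 369 TPM in late libraries, against 369, 582 and 858 TPM in early libraries. The highest late CDK1 value, 368.6 TPM in replicate 3 of stage 6, fell just under the lowest early value, 369.1 TPM in replicate 1 of stage 5, and the log2 change was -1.84 ± 0.13. UBE2S, which extends ubiquitin chains for the same complex, had 406, 564.5 and 709 TPM in late libraries, against 881, 1060 and 1343 TPM in early libraries, a log2 change of -1.28 ± 0.09. All UBE2S values in late cleavage were lower than any in early cleavage. NEK2, a kinase of centrosome separation, averaged 281 ± 65.3 TPM late and 421 ± 43.2 TPM early (SD, n = 9 and 12), and its log2 change was -0.94 ± 0.06. TPM of NEK2 overlapped between the phases, while its scaled counts did not.

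**Figure D2:**
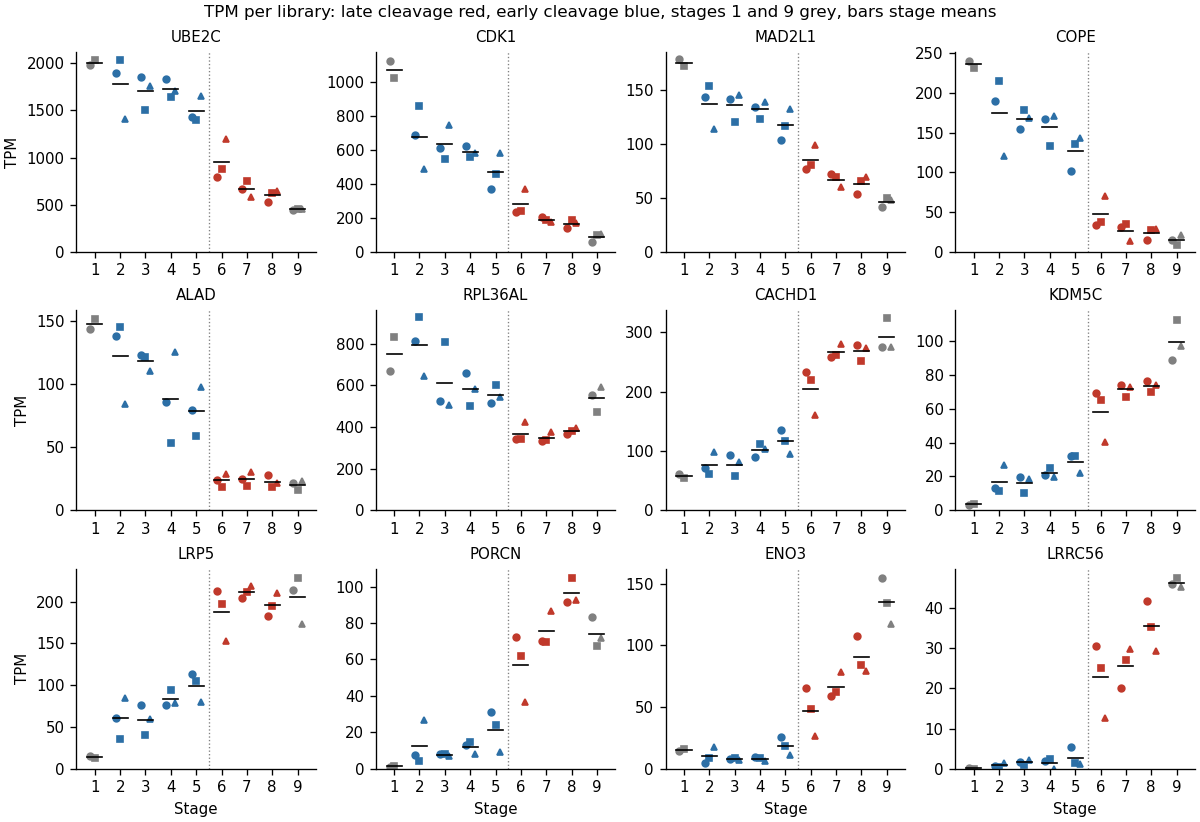
TPM of 12 named genes (vertical axes, from 0) by stage (horizontal axes). Points are single embryos, bars are stage means, red is late cleavage, blue is early cleavage, and grey marks stages 1 and 9, which were not part of the comparison. UBE2C, CDK1, MAD2L1, COPE, ALAD and RPL36AL stand lower at stages 6 to 8 than at stages 2 to 5, and the other 6 genes stand higher, with LRRC56 at 12.7 to 41.9 TPM late against at most 5.28 TPM early.

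The cell cycle genes did not move as a block. Of 74 control and checkpoint genes tested, 32 were higher (43.2%, against 35.2% of all genes) and 27 lower (36.5%, against 31.8%). Their median log2 change was 0.10 against 0.03 over all genes. That median was -0.03 when offsets were adjusted for gene length, against -0.05 over all genes. CDC26, a small subunit of the anaphase-promoting complex, fell by 0.86 on the log2 scale, with 127.6 ± 8.89 TPM late and 184 ± 14.2 TPM early (SD, n = 9 and 12). Other members are named here after their values were seen. The mitotic kinases PLK1 and AURKA fell by 1.03 and 0.88 on the log2 scale. Cyclin genes went different ways: CCNB1 averaged 1368 ± 79.9 TPM late and 1543 ± 322 TPM early with a log2 change of -0.49, while CCNB3 averaged 57.2 ± 5.45 TPM late and 26.7 ± 6.57 TPM early with a log2 change of 0.81. WEE1, a kinase that restrains CDK1, was higher, with 8.85 ± 3.39 TPM late and 3.26 ± 1.03 TPM early and a log2 change of 1.09.

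Spindle and kinetochore genes were lower more often than higher. Of 93 tested, 41 were lower (44.1%, against 31.8% of all genes) and 24 higher (25.8%, against 35.2%). The median was -0.13, and 0.13 with library size alone, against 0.03 and 0.28 over all genes. MAD2L1, a spindle checkpoint protein, had 54.1, 69.3 and 99.1 TPM in late libraries, against 104, 133 and 154 TPM in early libraries. Its ranges did not overlap, and the log2 change was -1.21 ± 0.09 (edgeR quasi-likelihood, adjusted p = 3.29e-08). TACC3, which acts on spindle microtubules, averaged 23.4 ± 8.32 TPM late and 43.3 ± 4.83 TPM early, a log2 change of -1.27. TACC3 values overlapped between phases, since the highest late library had 40.4 TPM. CENPA, the histone variant of the centromere, fell by 1.29 on the log2 scale and KIF11, a spindle motor, by 1.03, both named after their values were seen.

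DNA replication genes were mostly lower, at 38 of 60 tested (63.3%, against 31.8% of all genes). Another 9 were higher (15%, against 35.2%), and the median was -0.33. With library size alone 17 were lower and 17 higher, with a median of -0.07. Over all genes that setting gave 1858 lower, 5992 higher and a median of 0.28. RFC2, a subunit of the loader of the replication clamp, had 177, 221 and 262 TPM late, against 266, 299.9 and 346 TPM early, a log2 change of -0.79. GMNN, which blocks a second licensing of origins in 1 cycle, had 280.0, 299.5 and 362 TPM late, against 387, 415 and 464 TPM early, a log2 change of -0.80. Neither gene's ranges overlapped. The subunits of ribonucleotide reductase parted: RRM2 fell by 0.63 on the log2 scale, while RRM1 averaged 339 ± 41.7 TPM late and 143 ± 54.2 TPM early with a log2 change of 0.98. RRM1 and RRM2 were named after their values were seen.

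Ribosomal protein messages fell nearly as a whole. Of 75 cytosolic ribosomal protein genes tested, 72 were lower (96%, against 31.8% of all genes), 0 higher (against 35.2%) and 3 not called. Their median was -0.88, against 0.03 over all genes. At an unadjusted p under 0.05 the number of higher members by edgeR's quasi-likelihood test was also 0, and by the DESeq2 Wald test it was 0. With library size alone 64 members were lower and 0 higher (median -0.62, against 0.28 over all genes). RPL36AL, a protein of the large subunit, had 333, 367 and 423 TPM late, against 503, 594 and 930.1 TPM early, a log2 change of -1.12 ± 0.12. RPS16, of the small subunit, had 53.7, 61.0 and 69.0 TPM late, against 83.8, 93.4 and 154 TPM early, a log2 change of -1.03 ± 0.11. Both genes had every late library under every early one. The ribosomal genes did not vary evenly across early libraries: their median deviation from the mean log2 CPM was 1.27, 1.19 and 0.74 in replicate 2 of stage 2, replicate 2 of stage 3 and replicate 1 of stage 2, against -0.05 to 0.39 in the other early libraries. In late libraries it lay between -0.80 and -0.21. Without those 3 early libraries, 76 members passed the filter on low counts. Of these 71 were lower, 1 was higher and the median was -0.68.

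Energy metabolism showed the same direction for the respiratory chain. Of 71 nuclear genes of the respiratory chain and ATP synthase, 59 were lower (83.1%, against 31.8% of all genes). Another 4 were higher (5.63%, against 35.2%), and the median was -0.63. COX5B, a subunit of cytochrome c oxidase, had 306.5, 340.5 and 385.5 TPM late, against 431, 473 and 588 TPM early, a log2 change of -0.84. CYCS, the electron carrier cytochrome c, had 254, 283 and 310.3 TPM late, against 361, 387 and 436 TPM early, a log2 change of -0.81. The late and early ranges of both were separate. Both mitochondrially encoded genes that passed the filter on low counts were lower: COX1 averaged 57710 ± 8447 TPM late and 90560 ± 32860 TPM early (log2 change -0.98), and ND5 had a log2 change of -1.11. Another 9 genes of this list were in the table and were left untested because of low counts. CYC1, also of the chain and named after its values were seen, went the other way, with 325 ± 52.0 TPM late and 147 ± 39.7 TPM early and a log2 change of 0.84.

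The other metabolic lists moved less. Of 42 genes of glycolysis and the citric acid cycle, 21 were lower (50%, against 31.8% of all genes) and 8 higher (19%, against 35.2%). Their median was -0.23, and 0.03 with library size alone, against 0.03 and 0.28 over all genes. ENO3, an enolase known from muscle, was higher, with 26.8, 65.5 and 108 TPM late, against 4.59, 8.97 and 26.0 TPM early. Its TPM ranges came close without overlap, while its scaled counts overlapped between the phases. The log2 change of ENO3 was 2.33 ± 0.19 (edgeR quasi-likelihood, adjusted p = 6.12e-08). IDH2, a mitochondrial isocitrate dehydrogenase, averaged 1178 ± 57.6 TPM late and 1262 ± 92.7 TPM early, a log2 change of -0.42. Of 75 mitochondrial ribosomal protein genes, 30 were lower (40%, against 31.8% of all genes) and 18 higher (24%, against 35.2%), with a median of -0.11. That median was 0.15 with library size alone and 0.01 with length-adjusted offsets, against 0.28 and -0.05 over all genes. Their named members MRPS26 and MRPL42 fell by 0.62 and 0.70 on the log2 scale, without overlap.

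Messages of the spliceosome, the proteasome and translation factors were also lower more often than higher. For the spliceosome 53 of 83 were lower (63.9%) and 17 higher (20.5%), with a median of -0.29. For the proteasome 31 of 47 were lower (66%) and 9 higher (19.1%), with a median of -0.31. Over all genes 31.8% were lower and 35.2% higher. With library size alone the numbers were 30 lower and 27 higher for the spliceosome, and 17 lower and 14 higher for the proteasome. That setting gave 1858 lower and 5992 higher of all 11991 genes. SNRPD3, a core protein of small nuclear ribonucleoproteins, averaged 561 ± 25.1 TPM late and 831.5 ± 86.7 TPM early, a log2 change of -0.90. HNRNPC, which binds nascent transcripts, had a log2 change of -0.99. PSMA6, a core subunit of the proteasome, averaged 227 ± 20.5 TPM late and 339 ± 49.6 TPM early, a log2 change of -0.91. PSMD10, a proteasome chaperone, averaged 300.4 ± 69.6 TPM late and 481 ± 44.4 TPM early, a log2 change of -1.03. Of 54 translation factors 26 were lower (48.1%) and 15 higher (27.8%). Their median was -0.08, and 0.17 with library size alone, against 0.03 and 0.28 over all genes. EIF1, which guides start codon choice, averaged 934 ± 62.8 TPM late and 1315 ± 135 TPM early, a log2 change of -0.82. TPT1, a growth-related protein, fell by 0.80 on the log2 scale.

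**Figure D3:**
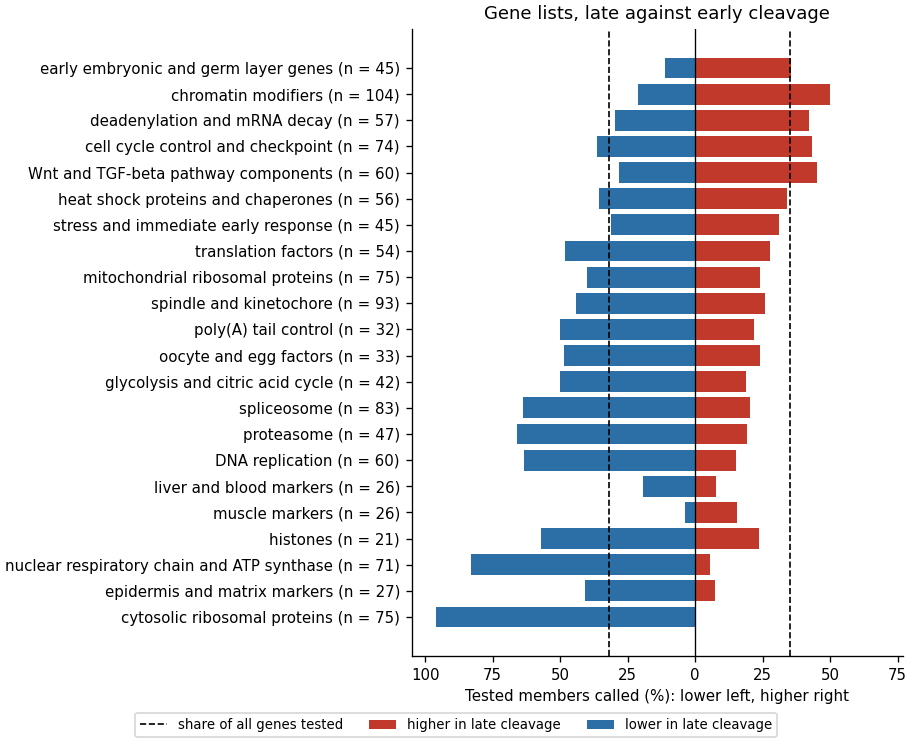
Share of the tested members of each gene list that were called higher (red, to the right) or lower (blue, to the left) in late than in early cleavage, in percent of members. Lists run from the highest median log2 change at the top to the lowest at the bottom, dashed lines mark the shares over all genes tested (35.2% higher and 31.8% lower), and lists with under 10 tested members are not drawn. Cytosolic ribosomal proteins have 96% lower members, the nuclear respiratory chain 83.1%, and chromatin modifiers 50% higher members.

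Histone genes differed by member. Of 21 tested, 12 were lower (57.1%, against 31.8% of all genes) and 5 higher (23.8%, against 35.2%), with a median of -0.52. With library size alone 9 were lower and 7 higher (median -0.27, against 0.28 over all genes). Without stage 8 there were 11 lower and 2 higher. With no filter on low counts, 28 were tested (median -0.12). H2AFX, the variant that marks DNA breaks, averaged 515 ± 37.2 TPM late and 785 ± 65.1 TPM early, a log2 change of -0.94. HIST2H2AB averaged 337 ± 22.5 TPM late and 556 ± 59.3 TPM early, a log2 change of -1.05. In both, late and early libraries did not overlap. H1FOO, the linker histone of the oocyte, had 160.4, 174 and 179 TPM late, against 230.0, 245 and 309.6 TPM early, a log2 change of -0.91 ± 0.08. HIST1H4E and HIST1H2BC were higher, through stages 7 and 8, and HIST1H2BC is described with stage 8. HIST1H4E had 0, 3.11 and 32.4 TPM late, against 0, 0.25 and 1.21 TPM early, overlapping because replicate 3 of stage 6 was listed at 0.

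Egg factors were lower in sum and split by member. Their summed TPM was 4399 ± 242 in late and 5292 ± 424 in early libraries (SD, n = 9 and 12, exact permutation test, two-sided, p = 1.02e-05, adjusted 3.06e-05). This list was chosen with earlier results of these data known, so that p gives no independent support. A sum is also set mostly by abundant members, and in the most abundant of 5 equal groups of genes 59.3% were lower. Of 33 oocyte and egg factors tested, 16 were lower (48.5%, against 31.8% of all genes) and 8 higher (24.2%, against 35.2%). Their median was -0.22, and 0.03 with library size alone, against 0.03 and 0.28 over all genes. DND1, which protects germ cell messages, averaged 589.9 ± 34.9 TPM late and 877 ± 111 TPM early, a log2 change of -0.90 without overlap. BTG4, known in mouse to bring deadenylase to maternal messages, averaged 709.9 ± 103 TPM late and 1123 ± 256 TPM early and fell by 0.98 on the log2 scale. ZAR1L, of an oocyte family that binds stored messages, fell by 1.28 on the log2 scale. Both were named after their values were seen. Higher members named in the same way were TDRD7, a germ granule protein, at 0.84, and MAEL, of the piRNA pathway, at 0.46 on the log2 scale.

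Genes that act on poly(A) tails and on decay also went both ways. Of 32 poly(A) tail control genes, 16 were lower (50%, against 31.8% of all genes) and 7 higher (21.9%, against 35.2%). Their median was -0.15, and 0.11 with library size alone, against 0.03 and 0.28 over all genes. NUDT21, of the cleavage factor that sets the site of the tail, averaged 75.03 ± 3.33 TPM late and 95.5 ± 7.50 TPM early, a log2 change of -0.68. CPEB1, the cytoplasmic polyadenylation factor, averaged 299 ± 38.8 TPM late and 319 ± 51.9 TPM early, with a log2 change of -0.41. Of 57 deadenylation and decay genes, 24 were higher (42.1%) and 17 lower (29.8%, near the share of all genes). Their median log2 change was 0.11, and -0.03 with length-adjusted offsets, against 0.03 and -0.05 over all genes. The exosome subunits EXOSC4 and EXOSC3 fell by 0.78 and 0.62 on the log2 scale. DCP2, the decapping enzyme, was higher, with 167 ± 13.6 TPM late and 82.6 ± 28.8 TPM early and a log2 change of 0.75. CPEB1 and DCP2 were named after their values were seen.

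Chromatin modifiers had the highest share of increases among the 23 lists. Of 104 tested, 52 were higher (50%, against 35.2% of all genes) and 22 lower (21.2%, against 31.8%), and the median log2 change was 0.21. These are long genes, and with length-adjusted offsets 42 were higher and 36 lower, and their median log2 change was 0.03. Over all genes that setting gave 3594 higher, 4385 lower and a median of -0.05. KDM5C, a histone H3 lysine demethylase, had 40.3, 70.2 and 76.7 TPM late, against 10.2, 20.4 and 32.2 TPM early. Its late libraries all lay above the early ones, with replicate 3 of stage 6 the lowest, and the log2 change was 1.42 ± 0.12. ARID1B, a subunit of the BAF remodelling complex, averaged 20.0 ± 2.00 TPM late and 9.07 ± 1.98 TPM early, a log2 change of 0.84. TET1, which oxidizes methylated cytosine, and SETD1A, a histone H3 methyltransferase, had log2 changes of 2.43 and 2.00. TET1 had 30.4 ± 8.17 TPM late and 4.95 ± 3.78 TPM early, and SETD1A had 15.7 ± 2.52 TPM late and 3.31 ± 1.60 TPM early. Among lower members, CBX3, a heterochromatin protein, fell by 0.69 on the log2 scale. TET1, SETD1A and CBX3 were named after their values were seen.

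Signalling genes went both ways. Of 60 genes of the Wnt and TGF-beta pathways, 27 were higher (45%, against 35.2% of all genes) and 17 lower (28.3%, against 31.8%), and their median log2 change was 0.09. With library size alone 36 were higher and 6 lower, and with length-adjusted offsets 17 were higher and 22 lower (median -0.09). Over all genes those settings gave 5992 higher and 1858 lower, and 3594 higher and 4385 lower (median -0.05). PORCN, the acyltransferase that Wnt ligands need for secretion, had 36.5, 72.5 and 104.5 TPM late, against 4.04, 8.60 and 31.0 TPM early. LRP5, a Wnt co-receptor, had 153, 204 and 218 TPM late, against 35.3, 77.9 and 113 TPM early. In both genes each late library was above each early one, with log2 changes of 2.28 ± 0.24 for PORCN and 1.12 ± 0.10 for LRP5. Of intracellular members named after their values were seen, CTNNB1, beta-catenin, had 491 ± 29.5 TPM late and 495 ± 101 TPM early, and TCF7, a nuclear partner of beta-catenin, fell by 1.05 on the log2 scale. BAMBI, a decoy receptor that dampens TGF-beta signals, had 19.2, 48.7 and 55.1 TPM late, against 1.99, 7.78 and 19.2 TPM early, with a log2 change of 2.12 ± 0.26. The lowest late BAMBI value, 19.24 TPM in replicate 3 of stage 6, and the highest early one, 19.21 TPM in replicate 2 of stage 5, nearly met. Scaled counts of BAMBI overlapped between the phases.

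Genes of the early embryo were called higher about as often as all genes, and lower less often. Of 45 early embryonic and germ layer genes tested, 16 were higher (35.6%, near the 35.2% of all genes) and 5 lower (11.1%, against 31.8%). Their median log2 change was 0.58, against 0.03 over all genes. Of 5 equal groups of genes by count, the lowest had 32.5% higher, 8.8% lower and a median of 0.37. The part of low counts in the result of this list was not tested. Another 15 in the table were left untested because of low counts. Without stage 8, 38 were tested, 10 were higher and 5 lower, and the median was 0.19. GDF3, a maternal TGF-beta ligand, was lower, with 299 ± 20.2 TPM late and 413 ± 58.3 TPM early and a log2 change of -0.79. HES2, a repressor of the Hes family, had 2.02, 4.13 and 14.3 TPM late, against 0, 0.46 and 1.57 TPM early, with no overlap and a log2 change of 3.33 ± 0.51.

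Stress genes and chaperones had called shares near those of all genes (35.2% higher and 31.8% lower). Of 45 stress and immediate early genes 14 were higher and 14 lower (31.1% each), and of 56 heat shock proteins and chaperones 19 were higher (33.9%) and 20 lower (35.7%). With library size alone 21 stress genes were higher and 6 lower, and 30 chaperones were higher and 7 lower. Of all 11991 genes that setting gave 5992 higher and 1858 lower. Without stage 8, 41 stress genes were tested, and 7 were higher and 13 lower. FOSB, a subunit of the AP-1 factor, averaged 11.7 ± 1.56 TPM late and 4.76 ± 1.41 TPM early, a log2 change of 1.01. AHSA1, a co-chaperone of HSP90, fell by 0.75 on the log2 scale. For muscle markers 4 of 26 were higher (15.4%) and 1 lower (3.85%), both under the shares of all genes, with summed TPM of 67.1 to 143 late and 44.4 to 263 early. The number of lower muscle markers was 5 with the replicate block, and 0 to 6 when each library was left out, highest without replicate 3 of stage 6. Liver and blood markers summed to 282 to 393 TPM late and 162 to 444 TPM early (exact permutation test of the means, two-sided, p = 0.00369, adjusted 0.00554). KLF1, an erythroid factor, made 208 ± 41.9 TPM of this late and 102 ± 36.6 TPM early. The list was chosen with earlier results of these data known, so the p of its sum gives no independent support. By member, 2 of 26 were higher (7.69%) and 5 lower (19.2%), both under the shares of all genes, with a median of -0.36. With library size alone 3 liver and blood markers were higher and 2 lower. HBZ, an embryonic globin, fell by 0.74 on the log2 scale. Epidermis and matrix markers summed to 508 to 584 TPM late and 453 to 731 TPM early, with 2 of 27 members higher (7.41%) and 11 lower (40.7%). Some defining markers were near 0 and others were not. TTN of muscle reached at most 0.24 TPM late and 0.23 TPM early, and COL1A1 of matrix 0.93 TPM late and 2.05 TPM early. The muscle genes CKM and ACTC1 had 9.47 to 28.8 and 9.02 to 19.1 TPM late, against 2.17 to 23.6 and 2.96 to 9.55 TPM early, and ALB of liver reached 12.6 TPM late and 18.8 TPM early. Members that stayed under 1 TPM in all 21 libraries numbered 13 of 39 for muscle, 1 of 29 for liver and blood, and 10 of 40 for epidermis and matrix. The part of these marker genes in other results was not tested.

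Genes named for the size of their change had varied functions. They are the largest changes among called genes at 5 TPM or more whose stage means did not overlap, and members of the lists at lower levels changed more, such as CDC25B, a phosphatase that activates CDK1, at 5.41 and NEB of muscle at -2.72 on the log2 scale. COPE, a subunit of the coat of Golgi transport vesicles, had 13.5, 31.5 and 69.97 TPM late, against 102, 161 and 215 TPM early, the largest fall among genes named by size, at -2.68 ± 0.21. ALAD, an enzyme of heme synthesis, had 18.3, 23.6 and 30.2 TPM late, against 53.4, 104 and 145 TPM early, a log2 change of -2.42 ± 0.18. Both genes had late and early values apart. LRRC56, a protein linked in other species to cilia, had 12.7, 29.4 and 41.9 TPM late, against 0, 1.5 and 5.28 TPM early, a log2 change of 3.85 ± 0.34. CASZ1, a zinc finger factor, had 5.33, 12.3 and 13.6 TPM late, against 0.17, 1.17 and 4.61 TPM early, a log2 change of 2.62 ± 0.33. LRRC56 and CASZ1 were both low in every early library. ADCY4, an adenylyl cyclase, had 0, 4.77 and 18.4 TPM late, against 0, 0 and 1.75 TPM early, so that its log2 change of 4.25 ± 0.94 rests on few counts. TMEM150C and FAM114A1 rose by 3.06 and 3.03 on the log2 scale, both with overlapping libraries. FAM114A1 was not called without stage 3, at a log2 change of 1.34 (edgeR quasi-likelihood, adjusted p = 0.0537).

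The 4 higher genes named for the smallest p had late and early ranges apart. CACHD1, related to the alpha2delta subunits of calcium channels, had the smallest p among the named increases, with 160.2, 258 and 279 TPM late, against 57.3, 93.9 and 135 TPM early. TRIP11, a Golgi tether, averaged 58.0 ± 5.06 TPM late and 29.6 ± 5.67 TPM early. KIAA1244 averaged 8.69 ± 1.13 TPM late and 3.65 ± 0.94 TPM early, and PLXNA1, a semaphorin receptor, 34.9 ± 3.25 TPM late and 15.2 ± 2.97 TPM early. The log2 changes of CACHD1, TRIP11, KIAA1244 and PLXNA1 were 1.102, 0.66, 0.96 and 0.89. Among the other large falls, OIP5, of the centromere, and FBXO16, of a ubiquitin ligase, had log2 changes of -2.60 and -2.52. S100P and RAB22A had -2.07 and -2.03, and CXorf30 had -1.90. Late and early libraries overlapped for OIP5, S100P, RAB22A and CXorf30, and did not for FBXO16. S100P had 3.24, 4.50 and 7.46 TPM late, against 2.43, 8.70 and 180.1 TPM early (lowest, median, highest).

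Of the 3 windows within cleavage, stages 6-7 against stages 4-5 held the most calls. Here 2472 genes were higher and 2532 lower in stages 6-7, 41.7% of all tested (20.6% higher and 21.1% lower). The count of higher genes was 1601 without replicate 1 of stage 6, and with library size alone 3714 genes were higher and 1302 lower. ALAD had a log2 change of -2.02 between these windows, against -0.74 between stages 4-5 and 2-3 and -0.08 between stage 8 and stages 6-7. UBE2C had -1.24, against -0.32 in the earlier and -0.41 in the later window. CACHD1 and TRIP11 had 0.87 and 0.55 between stages 6-7 and 4-5. The nuclear respiratory chain list had 55 of 71 members lower and 2 higher there, ribosomal proteins had 54 of 75 lower, and chromatin modifiers had 42 of 104 higher and 14 lower. The median log2 change of cytosolic ribosomal proteins was -0.625 there and nearly as large, -0.572, between stages 4-5 and 2-3, where 0 members were called. For the respiratory chain these medians were -0.554 and -0.273, and for chromatin modifiers 0.184 and 0.0384.

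Between stages 4-5 and stages 2-3 no gene was called (0%). At an unadjusted p under 0.05 there were 3456 genes, and the DESeq2 Wald test called 1461. The count changed most without replicate 3 of stage 2, when edgeR's quasi-likelihood test called 2504 genes higher and 2223 lower. With the stage 5 library of the same number left out it was 541 higher and 610 lower. The corresponding counts were 51 and 155 for replicate 3 of stage 3, and 2 and 6 for replicate 1 of stage 4. In replicate 3 of stage 2 KDM5C was at 26.6 TPM, against 13.0 and 11.2 TPM in the other libraries of stage 2, and CDK1 was at 487 TPM, against 688 and 858 TPM. Both values lay on the side of later stages, as did 26.5 TPM of PORCN against 7.23 and 4.04 TPM. In the comparison of late with early cleavage, omitting replicate 3 of stage 2 gave 4492 higher and 4090 lower genes. Leaving out replicate 3 of stage 6 gave 4180 higher and 3810 lower genes.

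Few genes were called between stage 8 and stages 6-7. This window held fewer libraries than the other windows (n = 3 and 6), so numbers of calls are not like for like between windows. There were 49 genes higher and 65 lower at stage 8, 0.951% of all tested (0.409% higher and 0.542% lower). Without replicate 1 of stage 8, 1 gene was higher and 1 lower. With any 1 stage 6 library left out, or replicates 1 or 2 of stage 7, or the second library of stage 8, there were 16 to 21 higher and 34 to 53 lower genes. Omitting the stage 7 library numbered 3 gave 89 and 84. Of the higher genes 46 were at least 2-fold higher, and of the lower ones 6 were at least 2-fold lower. HIST1H2BC, a histone H2B gene, had 352, 178 and 139 TPM in the 3 libraries of stage 8, against 4.88 to 99.2 TPM in stages 6-7. Its log2 change was 3.72 ± 0.47 (edgeR quasi-likelihood, adjusted p = 0.00192), and the highest library of stages 6-7 was replicate 3 of stage 7. Without replicate 1 of stage 8 its log2 change was 3.22 (edgeR quasi-likelihood, adjusted p = 0.0313). NANOG, a pluripotency factor, had 82.0, 24.8 and 14.5 TPM at stage 8, against 2.23 to 13.4 TPM in stages 6-7, a log2 change of 2.76 ± 0.46 (edgeR quasi-likelihood, adjusted p = 0.00842). NANOG lost its call when the first stage 8 library was omitted, with 1.71 on the log2 scale (edgeR quasi-likelihood, adjusted p = 0.233). Stage 8 values of both genes lay above all others of cleavage, and NANOG was at 527 to 541 TPM at stage 9.

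Of the early embryonic list, 8 of 45 members were higher at stage 8, against 0.409% of all genes. Only 38 members were tested when stage 8 was left out, so some passed the filter on low counts through that stage. The count of higher members is therefore no separate sign of a rise. The genes below are named after their values were seen. NODAL, the ligand that induces mesoderm and endoderm, had 4.41, 2.16 and 1.06 TPM at stage 8, against 0.06 to 1.33 TPM in stages 6-7. LEFTY2, its inhibitor, had 3.77, 2.46 and 1.18 TPM at stage 8, against 0 to 1.01 TPM. Replicate 1 was the highest of stage 8 in both of these genes and replicate 3 the lowest. SOX17, an endoderm factor, averaged 6.03 ± 2.19 TPM at stage 8 and 1.43 ± 1.32 TPM in stages 6-7. Of 45 stress genes tested, 3 were higher and 2 lower at stage 8, against 0.409% and 0.542% of all genes. The higher ones were EGR1, GADD45B and GADD45G, at 3.45, 3.63 and 2.29 on the log2 scale. Only 41 of that list were tested when stage 8 was left out, so the same limit holds. Histones HIST2H3C and HIST1H1B were higher at stage 8 by 1.49 and 1.13 on the log2 scale. In TPM, stage 8 and stages 6-7 overlapped for SOX17, EGR1, GADD45B, HIST2H3C and HIST1H1B, and not for GADD45G.

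Genes lower at stage 8 changed less in size than those higher. C17orf59 had 14.4, 26.7 and 25.6 TPM at stage 8, against 32.1 to 130 TPM in stages 6-7, a log2 change of -1.81 ± 0.23 (edgeR quasi-likelihood, adjusted p = 0.00192). It had 138, 170.4 and 199 TPM over the early libraries, and its log2 change over late and early cleavage as a whole was -2.07 ± 0.14. GOLSYN had 61.9, 85.9 and 85.7 TPM at stage 8, against 94.9 to 160 TPM in stages 6-7, a log2 change of -0.74 ± 0.11. Without replicate 1 of stage 8, C17orf59 was still called, at -1.56, and GOLSYN was not, at -0.60 (edgeR quasi-likelihood, adjusted p = 0.0313 and 0.079). GOLSYN was also not called with all 49 libraries in one fit, at -0.78 (adjusted p = 0.576). Both genes were lower in every library of stage 8 than in any of stages 6-7. TXNIP, a thioredoxin-binding protein, overlapped slightly, with 11.1, 12.8 and 14.9 TPM at stage 8 against 14.0 to 48.0 TPM. PATL2 and TRIM36, both of the egg factor list and named after their values were seen, fell by 1.02 and 0.86 on the log2 scale.

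**Figure D4:**
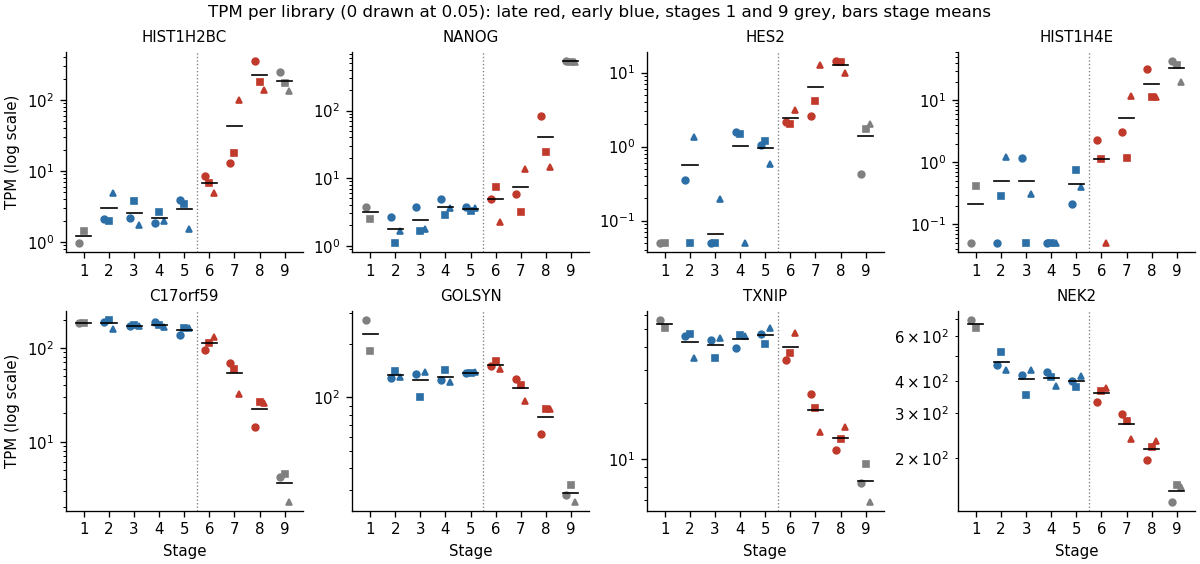
TPM of 8 genes (vertical axes, log scale, values of 0 drawn at 0.05) by stage (horizontal axes). Points are single embryos, bars are stage means, red is late and blue early cleavage, and grey marks stages 1 and 9. HIST1H2BC reaches 139 to 352 TPM and NANOG 14.5 to 82.0 TPM at stage 8, while C17orf59 and GOLSYN fall to 14.4 to 26.7 and 61.9 to 85.9 TPM.

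Changes moved with gene length and with count. Genes were split by effective length, estimated from the ratio of count to TPM, into 5 groups of equal size. In the group of shortest genes, 21.6% were higher and 47.3% lower. In the group of longest genes, 49% were higher and 20.7% lower. The median log2 change was 0.19 in the longest and -0.26 in the shortest group, and it was -0.03 and -0.08 after offsets were adjusted for length. In single libraries, the deviation of the longest minus that of the shortest group was 0.14 to 0.31 in late libraries. In early libraries it was -0.46 to -0.05 (exact permutation test of the means, two-sided, p = 3.4e-06, adjusted 3.06e-05). The part of preparation or sequencing lane in this split was not tested. By count, 17% of the most abundant group were higher and 59.3% lower, and 32.5% of the least abundant group were higher and 8.8% lower. Across 11991 genes, which are not independent, Spearman's rho of the log2 change was 0.20 with length and -0.33 with mean log2 CPM. With length-adjusted offsets 3594 genes were higher and 4385 lower, 6984 of the 8042 calls kept their direction and 9 were called the other way.

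**Figure D5:**
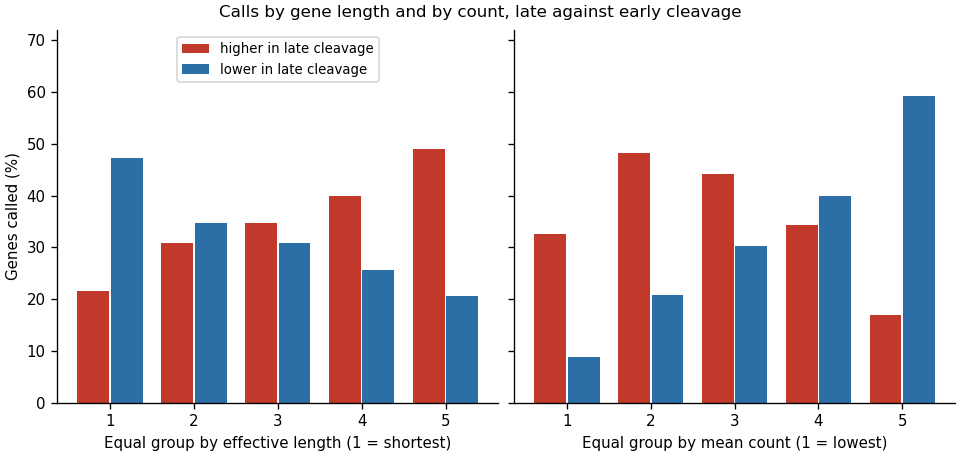
Share of genes called higher (red) and lower (blue) in late than in early cleavage (vertical axis, percent) in 5 equal groups of genes by effective length (left) and by mean count (right). From the shortest to the longest group the share of higher genes goes from 21.6% to 49%, and from the lowest to the highest count the share of lower genes goes from 8.8% to 59.3%.

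Named lists that hold short genes were read against length. They were not read against count, though the most abundant group had 17% higher, 59.3% lower and a median log2 change of -0.24. The proteasome, spliceosome and DNA replication lists had 66%, 63.9% and 63.3% lower members. The part of count in the shares of the lists was not tested. The respiratory chain list, at a median length of 0.25 relative to the median gene, had 55 of 71 members lower and 5 higher with length-adjusted offsets, with a median of -0.39, and 52 of its 59 lower members were lower in both fits. Ribosomal proteins, at 0.61, had the same 72 of 75 members lower, with a median of -0.86. Mitochondrial ribosomal proteins, at 0.30, had 23 lower and 25 higher after the adjustment, against 30 lower and 18 higher before it. Chromatin modifiers had a median relative length of 1.77 and 42 higher against 36 lower members after the adjustment. Over all genes the adjusted fit gave 3594 higher and 4385 lower.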

How the data were processed

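Per the labels' protocols, RNA of single embryos was poly(A)-selected with TruSeq and read as paired 101-base reads, with 6 libraries per lane. The authors deposited expected counts per gene (RSEM estimates, not normalized) and TPM, scaled for library total and gene length. The submitters' processing notes name RSEM 1.1.6 and Bowtie 0.12.1 without saying what each did. The reference and strand setting are not given in the sources used here. Tables of total RNA hold 10 columns of samples outside the labels and were not used. Of 15631 names, 11354 matched a RefSeq symbol or synonym.

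The edgeR package, version 4.0.16 (R 4.3.3), was run on rounded expected counts. A filter on low counts (filterByExpr, grouped by stage) left 11991 (genes left out held 0.0155% of counts), and libraries were scaled by TMM. The 21 libraries were fitted with stage as a factor (common dispersion 0.0385), apart from the other stages, whose RNA makeup differs. The mean of stages 6, 7 and 8 was set against that of stages 2 to 5, and 3 windows were tested, with Benjamini-Hochberg adjustment over all genes at 0.05. SE is the size of the log2 change over the square root of F. Log2 CPM used a prior count of 2. Few counts limit low genes, and replicate embryos set the precision of the rest. Between replicates of a stage, chi-square per degree of freedom was 8.18 or more in 21 pairs, so each was counted.

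Genes were named by a rule: the 8 largest changes each way among called genes at 5 TPM or more whose stage means did not overlap, the 4 smallest p each way, the 2 smallest p of each list with 3 called members, and 2 each way per window. LOC names (377) were left out, and the results of some genes are not reported here. The 23 lists and the members of the comparison were chosen with earlier results of these data known. Calls were tested on simulated data. Of 100 genes changed 1.5-fold, 81 were recovered in late against early cleavage, 76 between stages 4-5 and 2-3, and 51 at stage 8. False calls numbered 6, 7 and 4. The simulated data held no outlying libraries, and only genes above a minimum mean count were changed. They therefore measure neither recovery nor false calls in the real libraries, where leaving out a single library changed the calls between stages 4-5 and 2-3. Alternatives were DESeq2 1.42.0 (size factors and Wald test), library size alone, no filter, all 49 libraries in one fit, 2 groups without a stage term, a linear trend over stages, a replicate block, each stage or library left out, and, chosen after seeing the data, length-adjusted offsets and leaving out 3 libraries.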

Additional observations from a re-analysis of the deposited data

Results flagged for a closer look

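In 77 groups of 9 late cleavage libraries, 1 library stood away from the others in 17, by the gap to its neighbour over the range of the group (Dixon's 95% critical value 0.493). Chance marks about 1 in 20 such groups, and these groups share the same libraries.

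Replicate 3 of stage 6 was the library that stood away most often. It was the lowest of the 9 in CASZ1 (5.33 TPM), CACHD1 (160.2 TPM), KIAA1244 (5.91 TPM), BAMBI (19.2 TPM), KDM5C (40.3 TPM) and PKP3, a desmosome protein (59.6 TPM), all of them higher in late cleavage. It was the highest in COPE (69.97 TPM), GMNN (362 TPM), CDK1 (369 TPM) and H2AFX (606 TPM), all of them lower in late cleavage. On the first principal component it was at 14.8, and its TMM scaling factor was 1.04, the lowest of the late libraries. In each of these genes it lay on the side of the early libraries. It also held the fewest counts of the late libraries, 13.7 M. Its deviation of the longest minus the shortest group of genes, 0.14, was the lowest of the late libraries. The part of either in its values was not tested.

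Replicate 1 of stage 8 was the highest in HIST1H4E (32.4 TPM), HIST1H2BC (352 TPM), NANOG (82.0 TPM), RAB22A, a small GTPase of endosomes (5.58 TPM), and TPT1 (89.5 TPM).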

How the results depend on the processing

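In late against early cleavage the counts of 4225 higher and 3817 lower genes stayed within 1.5 times under the other settings, except the lower genes with library size alone (1858). Leaving out each library in turn gave 3837 to 4492 higher and 3661 to 4090 lower genes. For single named genes in late against early cleavage, 2549 values under alternatives kept their direction and call and 1 lost it. These genes were named for small p or large changes in the same data, so most were likely to keep their calls. Of all 8042 calls, 6083 were kept in the same direction with library size alone and 6984 with length-adjusted offsets. In the windows, NANOG and GOLSYN lost their stage 8 call without replicate 1 of stage 8 (1.71 and -0.60). GOLSYN also lost it with all 49 libraries (-0.78). Between stages 4-5 and 2-3, where 0 were called, library size alone gave 1659 higher and 58 lower, the DESeq2 Wald test 696 and 765, and all 49 libraries 445 and 177, with 0 to 2504 and 0 to 2223 when each library was left out. Between stages 6-7 and 4-5, library size alone gave 3714 and 1302, and leaving out each library gave 1601 to 3062 and 2225 to 2866. Between stage 8 and stages 6-7 (49 and 65), all 49 libraries gave 152 higher, only the libraries compared 130 higher and 195 lower, the Wald test 126 lower, and leaving out each library 1 to 89 and 1 to 101. Apart from library size alone, whose shift of all changes was 0.26, and the left-out libraries, the cause was not tested.

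Replicate numbers gave no clear sign of pairing the embryos. Of 63 correlations between libraries of the same number, 15 were over 0.1, with a median of 0.04 and a range of -0.46 to 0.36. Libraries of unlike number were not compared, so pairing was not tested. With the replicate block, 4167 genes were higher and 3762 lower in late cleavage, and 24 higher and 50 lower at stage 8.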

Other observations

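Other genes among the 114 called between stage 8 and stages 6-7 were named after their values were seen, and all rest on replicate 1 of stage 8 as described. SOX1, a neural factor, averaged 34.1 ± 23.4 TPM at stage 8 and 4.50 ± 3.25 TPM in stages 6-7 (SD, n = 3 and 6), and 251 TPM at stage 9. UPK3B, a uroplakin, averaged 23.3 ± 23.7 TPM at stage 8 and 1.66 ± 2.10 TPM in stages 6-7, and 445 TPM at stage 9. FZD8, a Wnt receptor, averaged 6.54 ± 2.47 TPM at stage 8 and 0.90 ± 0.95 TPM in stages 6-7. CDKN1B, an inhibitor of cyclin-dependent kinases, averaged 6.45 ± 2.69 TPM at stage 8 and 2.35 ± 0.78 TPM in stages 6-7.

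Among the lower genes, KPNA2, an importin alpha that carries proteins into the nucleus, averaged 168 ± 38.3 TPM at stage 8 and 334 ± 101 TPM in stages 6-7. LMNA, a protein of the nuclear lamina, averaged 43.4 ± 8.49 TPM at stage 8 and 74.7 ± 13.4 TPM in stages 6-7. GDF9, a ligand made by oocytes, averaged 58.1 ± 10.1 TPM at stage 8 and 89.9 ± 19.2 TPM in stages 6-7. DUSP4, a phosphatase of MAP kinases, had 438, 569 and 569 TPM at stage 8, against 580.0 to 893 TPM in stages 6-7, so every library of stage 8 was under every library of stages 6-7.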
